A study of Mus musculus with 9 samples.

Results

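The acute phase proteins followed here are 10 liver transcripts: Saa1, Saa2, Saa3, Orm1, Orm2, Hp, Hpx, Lcn2, Itih4 and Crp. They are the rows of the deposited count table that carry these gene names, 10 of 54532 genes, and all 10 passed the filter on low counts that left 14025 genes for testing. RNA had been sequenced from the livers of male wild-type C57BL/6 mice, in 3 groups of 3 libraries. The old Fabp4 shRNA mice were 20 months old and had received, at 14 months, an adeno-associated virus (AAV9) with a short hairpin RNA against the fatty acid carrier Fabp4, through the tail vein and into subcutaneous fat. The old control mice had the same age, injections and dose, with the virus AAV9-shRNA-Neg. The young mice were 8 weeks old, and no injection is stated for them, so that age and virus cannot be told apart in any comparison with young mice. The promoter that drives the hairpin is not given in the sources used here, and the RNA extraction text names NRVMs although every sample is labelled liver. Nothing in the labels says more of the replicates than their numbers, so p-values measure the spread between these libraries.

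The acute phase response is the shift in the proteins that the liver secretes after infection, tissue damage or other inflammation. Interleukin 6 acting through STAT3, and interleukin 1 and tumour necrosis factor acting through NF-kB, are its main inducers in hepatocytes, with C/EBP factors at many of the promoters. Positive acute phase proteins rise in blood, and negative ones such as albumin and transthyretin fall. In mice the serum amyloid A proteins are major acute phase reactants, whereas C-reactive protein responds little.

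One young library needed care. The tables have a column for a young mouse whose number matches none of the young titles, and it is called the unnumbered young library here. In the other 8 libraries FPKM (fragment counts scaled to gene length and depth) was a fixed multiple of the count for 100% of 10483 genes, but in the unnumbered young library this held for 0.229%. Its count column and its FPKM column therefore hold different measurements. Results below use the count column unless stated. Where a printed level of that library moves by 1.5-fold or more, the level in whole reads recovered from the FPKM column is also given. The count column also held 3987 CPM (counts scaled to library size by the TMM method) of 10 skeletal muscle markers, led by the actin gene Acta1 at 1105 CPM, against 9.52 CPM in the recovered reads and 0.662 to 86.4 CPM in the other 8 libraries. Total counts ran from 14243344 to 17125440 per library. Fabp4, the target of the hairpin, stood at 11.2, 3.81 and 7.58 CPM in old Fabp4 shRNA livers, against 7.21, 13.6 and 10.9 CPM in old control livers, and the groups overlapped (log2 fold change -0.49 ± 1.16 SE, adjusted p = 0.960, edgeR's quasi-likelihood test). In young livers Fabp4 was 3.40 and 2.67 CPM, and 64.8 CPM in the unnumbered library, where the recovered reads gave 2.53 CPM. The SE of 1.16 comes from the fit of all libraries, whose spread includes the 64.8 CPM. Without the unnumbered library Fabp4 differed from young livers by 1.30 ± 0.45 in old Fabp4 shRNA and 1.76 ± 0.46 in old control livers (adjusted p = 0.289 and 0.262, edgeR).

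Of the 10 genes, 5 belong to the serum amyloid A or the orosomucoid genes, and 4 of these are near copies in pairs. Saa1, Saa2 and Saa3 lie together on chromosome 7 (GENCODE, GRCm38), at chr7:46740497-46742980 on the minus strand, chr7:46751790-46754313 on the plus strand and chr7:46711998-46715700 on the minus strand. Saa1 and Saa2 point away from each other, with starts 8810 bases apart, and their transcripts were 93.9% identical, against 62.2% for Saa1 and Saa3. Orm1 (chr4:63344560-63348163) and Orm2 (chr4:63362449-63365878) are tandem genes on the plus strand with another copy, Orm3, between them, and their transcripts were 91.0% identical. How the authors' counting treated reads that fit both copies is not given in the sources used here, so the split between Saa1 and Saa2, and between Orm1 and Orm2, is uncertain. The other members are Hp on chromosome 8, Hpx on chromosome 7, Lcn2 on chromosome 2, Itih4 on chromosome 14 and Crp on chromosome 1. Only Crp overlaps another annotated gene, a pseudogene with 8 counts in all libraries together.

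Upstream sequence is shown for Saa1 and Saa2, the pair that moved together most closely below, for Orm2, another member of wide range, and for Itih4, a member of narrow range. RefSeq (GRCm38.p6) gave promoters for 8 of the 10 members, all but Orm1 and Hp. The stretches run 5′ to 3′ on the gene's strand and end where the annotated gene begins. They are chr7:46742981-46743230 (minus strand) for Saa1, chr7:46751583-46751789 (plus) for Saa2, chr4:63362199-63362448 (plus) for Orm2 and chr14:30886226-30886475 (plus) for Itih4. Capitals mark matches to the C/EBP motif TTGCNNAA or, in Itih4, the STAT motif TTCNNNGAA, searched on both strands.
Saa1: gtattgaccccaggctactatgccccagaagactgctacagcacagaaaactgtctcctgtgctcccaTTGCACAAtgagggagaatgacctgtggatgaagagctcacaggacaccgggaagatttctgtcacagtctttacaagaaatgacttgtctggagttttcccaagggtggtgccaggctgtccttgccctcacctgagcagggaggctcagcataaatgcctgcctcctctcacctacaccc
Saa2: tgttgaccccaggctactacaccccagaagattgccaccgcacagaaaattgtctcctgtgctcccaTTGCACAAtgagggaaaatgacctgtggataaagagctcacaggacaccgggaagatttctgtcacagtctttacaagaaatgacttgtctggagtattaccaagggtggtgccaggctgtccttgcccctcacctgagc
Orm2: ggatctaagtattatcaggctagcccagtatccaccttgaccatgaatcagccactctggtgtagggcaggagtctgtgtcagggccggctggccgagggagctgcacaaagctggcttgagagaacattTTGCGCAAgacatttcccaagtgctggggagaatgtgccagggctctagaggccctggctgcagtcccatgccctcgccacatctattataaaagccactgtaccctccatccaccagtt
Itih4: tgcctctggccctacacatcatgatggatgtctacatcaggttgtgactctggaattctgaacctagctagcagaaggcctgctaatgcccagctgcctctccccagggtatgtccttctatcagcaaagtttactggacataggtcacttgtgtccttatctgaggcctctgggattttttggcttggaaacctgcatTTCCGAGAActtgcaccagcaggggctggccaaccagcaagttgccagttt

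The 250 bases before the RefSeq starts of Saa1 and Saa2 were 94.8% identical, and both held TTGCACAA, at -182 to -175 in Saa1 and -183 to -176 in Saa2. Orm2 had TTGCGCAA at -120 to -113. In all, 6 of the 8 members with a promoter (Saa1, Saa2, Saa3, Orm2, Hpx and Lcn2) held a C/EBP match, 1 (Itih4) a STAT match and 0 a match to the NF-kB decamer. Among 32851 promoters of the same length, 9.56% held the C/EBP letters, 7.02% the STAT letters and 7.25% the NF-kB decamer. No match was found for Crp. A match describes letters only and says nothing of binding, and the absence of one says only that these letters are not in this window. The Lcn2 window lies inside the longer annotated gene and is not printed.

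Per length, Hp was the most abundant member, with a median of 4013 FPKM over the 8 libraries whose tables match, and Hpx followed at 3524 FPKM. Median levels then fell through Orm1 (1436 FPKM), Itih4 (390 FPKM), Crp (95.4 FPKM), Orm2 (68.1 FPKM), Saa1 (53.4 FPKM), Lcn2 (38.8 FPKM) and Saa2 (12.7 FPKM) to Saa3 (5.83 FPKM). Of the neighbours in this order, Itih4 and Crp alone had ranges that did not overlap, at 244 to 594 FPKM and 70.8 to 162 FPKM. Saa1 alone ran from 6.24 to 593 FPKM, a range that took in the median levels of Itih4, Crp, Orm2 and Lcn2.

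The members did not separate the groups. Most of them differed more between livers of 1 group than a typical gene did, and in some single livers most of them were high or low together. In old Fabp4 shRNA livers against old control livers, 0 of 10 members had groups that did not overlap in either direction, where 6.02% of all tested genes were higher without overlap and 5.67% lower. The count was again 0 of 10 for old Fabp4 shRNA against young (6.79% of tested genes higher and 6.67% lower) and for old control against young (8.89% higher and 8.26% lower). These comparisons share groups, so they are not independent of each other. Below, values in a group follow the order of replicates 1, 3 and 6 for old Fabp4 shRNA, 1, 2 and 5 for old control, and 1, 5 and the unnumbered library for young mice.

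**Figure D1:**
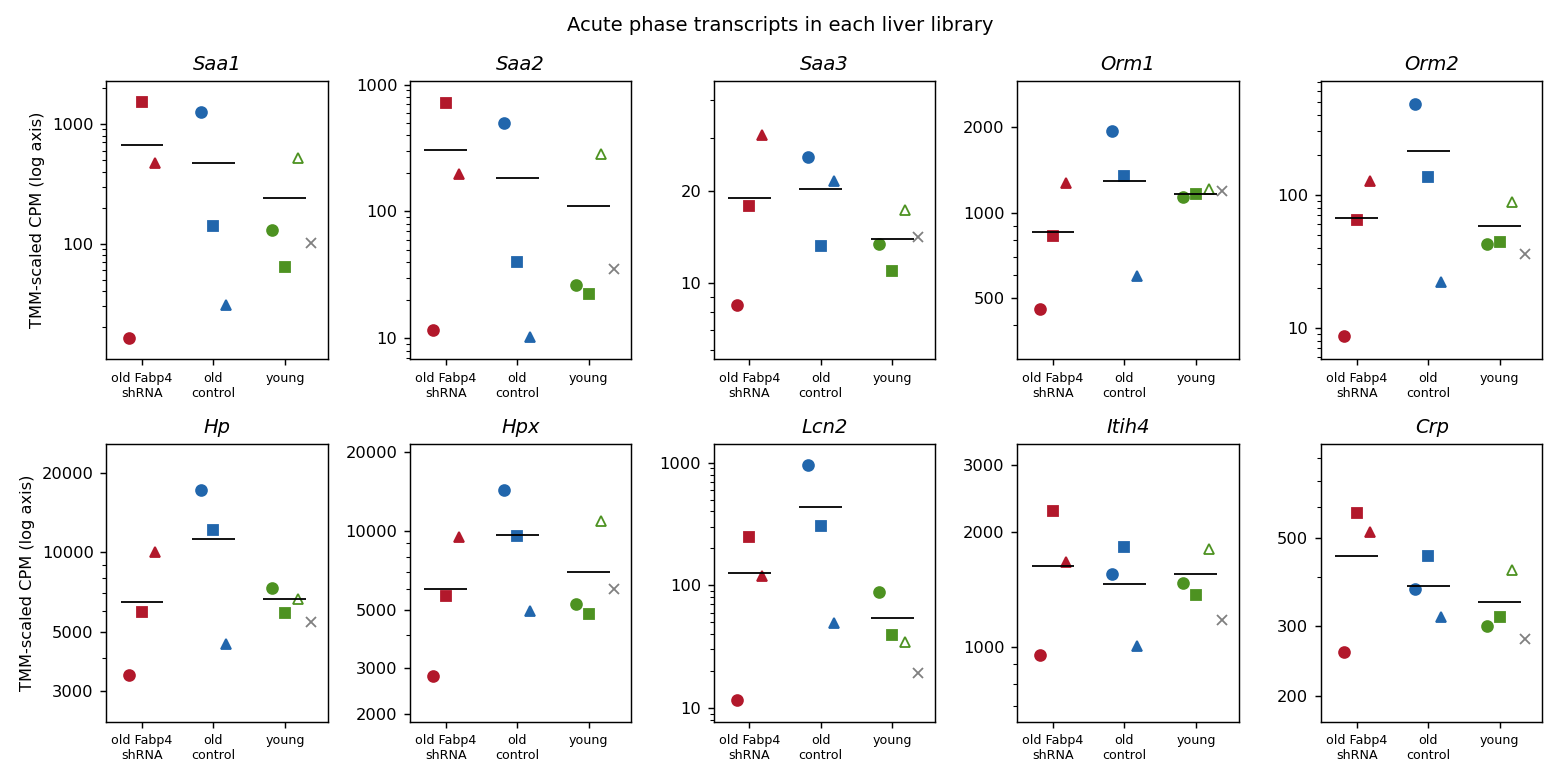
TMM-scaled CPM of the 10 transcripts (log axes that differ between panels) in 3 libraries of each group, with symbols in order of replicate and a line at the group mean. The open symbol is the count column of the unnumbered young library and the grey cross its recovered reads. Saa1 spans 16.4 to 1521 CPM within the old Fabp4 shRNA group, and no gene separates the groups.

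Saa1 and Saa2 encode the acute phase serum amyloid A apolipoproteins, which are carried on high-density lipoprotein. Saa1 stood at 16.4, 1521 and 474 CPM in old Fabp4 shRNA livers, 1251, 142 and 30.9 CPM in old control livers, and 131, 63.6 and 523 CPM in young livers, where the recovered reads gave 102 CPM for the last. Each old group thus held a liver above every young liver and a liver below every young liver. Saa2 followed nearly the same order with 11.6, 712 and 198 CPM in old Fabp4 shRNA livers, 499, 40.0 and 10.3 CPM in old control livers and 26.1, 22.4 and 284 CPM in young livers (recovered 35.0 CPM). Group means of Saa1 were 670.3 ± 771 CPM in old Fabp4 shRNA livers, 475 ± 675 CPM in old control livers and 239 ± 248 CPM in young livers (SD, n = 3 each), so each SD exceeded its mean. With the recovered reads the young mean was 98.7 ± 34.3 CPM, with an SD below the mean.

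The Saa1 difference of old Fabp4 shRNA from old control livers was 0.50 on the log2 scale, with a 95% interval from -3.73 to 4.73 (edgeR, adjusted p = 0.973). From young livers it was 1.49 ± 1.80 (SE) for old Fabp4 shRNA and 0.99 ± 1.78 for old control (adjusted p = 0.822 and 0.877, edgeR). With the recovered reads these became 2.77 ± 1.75 and 2.21 ± 1.71, and for Saa2 they became 3.47 ± 1.80 and 2.67 ± 1.75, still short of the threshold (adjusted p = 0.469, 0.619, 0.382 and 0.545, edgeR). Single livers set the directions. Without old control replicate 1 the Saa1 difference of old control from young was -1.47, and without old Fabp4 shRNA replicate 3 the difference of old Fabp4 shRNA from old control was -0.95.

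Saa3, a serum amyloid A form made largely outside hepatocytes, by macrophages and fat among others, was the least abundant member. It had 8.43, 17.9 and 30.7 CPM in old Fabp4 shRNA livers, 26.0, 13.2 and 21.7 CPM in old control livers and 13.5, 10.9 and 17.4 CPM in young livers. Its highest liver, old Fabp4 shRNA replicate 6, was not the highest for any other member. Saa3 differed by -0.09 ± 0.41 (0.0080 without library scaling) between old Fabp4 shRNA and old control livers, with a 95% interval from -0.98 to 0.79 (adjusted p = 0.980, edgeR).

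Orm1 and Orm2 encode orosomucoid, also called alpha-1-acid glycoprotein, a plasma carrier of drugs and lipids. Orm1 was 456, 828 and 1272 CPM in old Fabp4 shRNA livers, 1944, 1346 and 597 CPM in old control livers and 1132, 1159 and 1210.5 CPM in young livers. Young livers lay within 1.07-fold of each other, while the old groups spread on both sides of them. Orm2 was 8.73, 64.5 and 127 CPM in old Fabp4 shRNA livers, 479, 137 and 22.2 CPM in old control livers and 42.7, 44.5 and 87.8 CPM in young livers (recovered 36.0 CPM). The copies changed in unequal measure, and Orm2 counts came to between 1.91% of Orm1 counts, in old Fabp4 shRNA replicate 1, and 24.6%, in old control replicate 1. Between old Fabp4 shRNA and old control livers Orm1 differed by -0.60 ± 0.42 and Orm2 by -1.67 ± 1.20 (adjusted p = 0.831 and 0.840, edgeR). Old control livers differed from young ones by 0.15 ± 0.42 for Orm1 and 1.87 ± 1.21 for Orm2 (adjusted p = 0.922 and 0.614, edgeR). With the recovered reads the Orm2 difference was 2.33 ± 1.22 (adjusted p = 0.451, edgeR).

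Hp encodes haptoglobin, which binds free haemoglobin, and Hpx encodes haemopexin, which binds free haem. Hp was 3444, 5955 and 10051 CPM in old Fabp4 shRNA livers, 17151, 12113 and 4519.7 CPM in old control livers and 7339, 5913 and 6696 CPM in young livers. Hpx was 2814, 5645 and 9525 CPM in old Fabp4 shRNA livers, 14358, 9570.1 and 4957 CPM in old control livers and 5256, 4819.6 and 10947.5 CPM in young livers (recovered 6027 CPM). For each of these scavengers old control replicates 1 and 2 were high and old Fabp4 shRNA replicate 1 was the lowest of all. Hp averaged 6483 ± 3335 CPM in old Fabp4 shRNA livers, 11261 ± 6359 CPM in old control livers and 6649 ± 714 CPM in young livers (SD, n = 3 each). The difference of old Fabp4 shRNA from old control was -0.80 ± 0.47 for Hp and -0.68 ± 0.50 for Hpx (adjusted p = 0.786 and 0.840, edgeR). Old control livers differed from young ones by 0.76 ± 0.47 for Hp and by 0.46 ± 0.50 for Hpx (adjusted p = 0.582 and 0.778, edgeR). With the recovered reads the Hpx difference was 0.81 ± 0.44 (adjusted p = 0.435, edgeR).

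Lcn2 encodes lipocalin 2, which binds bacterial siderophores and so withholds iron, and is made by inflamed hepatocytes and by neutrophil precursors. It was 11.6, 249 and 120.3 CPM in old Fabp4 shRNA livers, 951, 302 and 49.6 CPM in old control livers and 88.6, 39.1 and 34.7 CPM in young livers (recovered 19.2 CPM). Old control replicates 1 and 2 lay above every young liver, and replicate 5 lay between young livers. The Lcn2 difference of old control from young was 3.00 ± 1.32, the largest of any member in any comparison by the count column, with a 95% interval from -0.10 to 6.11 (unadjusted p = 0.0562, adjusted p = 0.484, edgeR). In DESeq2 its p was 0.0127 before adjustment and 0.248 after. With the recovered reads the same difference was 3.10 ± 1.40 (adjusted p = 0.392, edgeR). Old Fabp4 shRNA livers differed by -1.77 ± 1.26 from old control livers and by 1.23 ± 1.24 from young livers (adjusted p = 0.840 and 0.792, edgeR). By its count column the unnumbered young library was the third highest of 9 for Saa1 and the eighth for Lcn2, and by its recovered reads the sixth and the eighth.

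Itih4, a plasma glycoprotein of the inter-alpha-trypsin inhibitor heavy chain family, and Crp, C-reactive protein, a pentraxin that binds phosphocholine, varied least. Itih4 was 954, 2267 and 1668 CPM in old Fabp4 shRNA livers, 1548, 1822 and 1001 CPM in old control livers and 1468, 1364 and 1805 CPM in young livers (recovered 1176 CPM). Crp was 258, 579 and 519 CPM in old Fabp4 shRNA livers, 372, 451 and 316 CPM in old control livers and 299.9, 317 and 417 CPM in young livers (recovered 278 CPM). For either gene old Fabp4 shRNA replicate 3 was the highest and replicate 1 the lowest library. Old Fabp4 shRNA differed from old control by 0.16 ± 0.33 for Itih4 and 0.25 ± 0.30 for Crp, with 95% intervals from -0.55 to 0.88 and from -0.39 to 0.90 (adjusted p = 0.955 and 0.910, edgeR). Crp in old Fabp4 shRNA against young livers had the lowest adjusted p of the 10 members in that comparison, 0.710, at 0.39 ± 0.30 (edgeR), and 0.60 ± 0.29 with an adjusted p of 0.298 from the recovered reads.

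**Figure D2:**
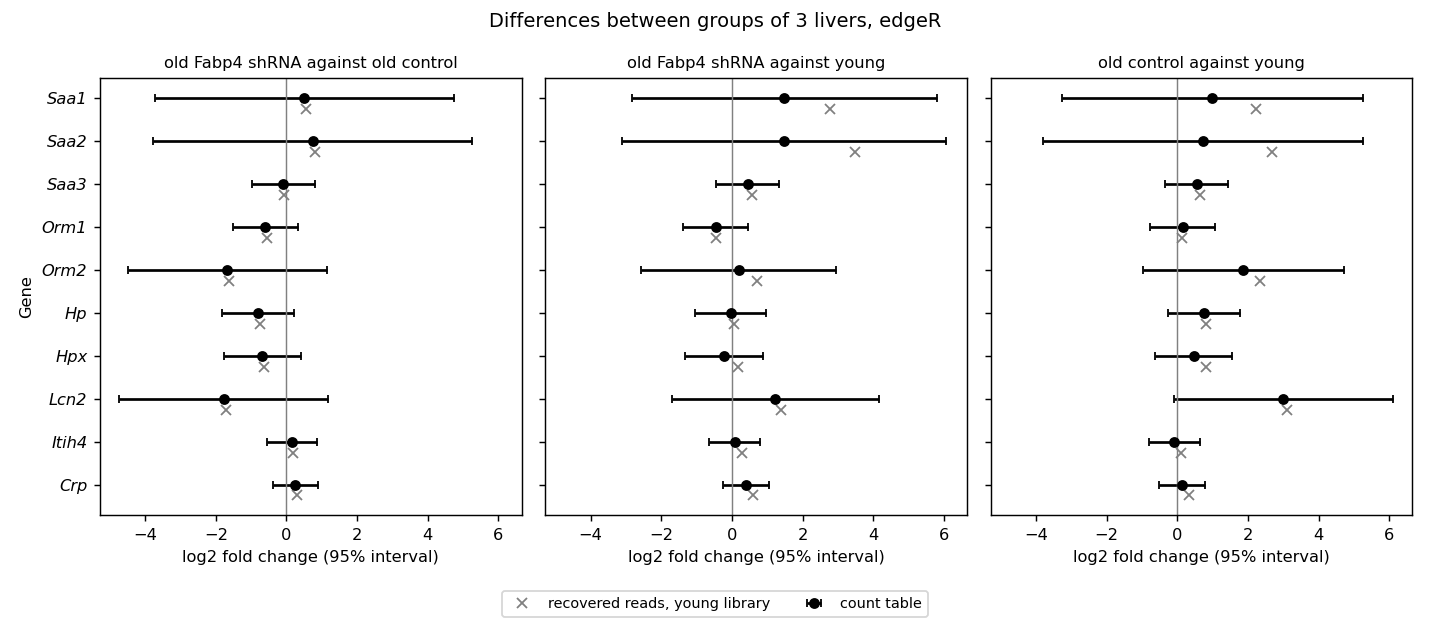
Log2 fold changes of the 10 transcripts in 3 comparisons of 3 against 3 livers (edgeR), with 95% intervals as bars and the fit with recovered reads of the unnumbered young library as crosses. Every interval from the count table includes 0; that of Lcn2 in old control against young starts at -0.10, and those of Saa1 and Saa2 are the widest.

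Across the group comparisons, 0 of 10 members were called at an adjusted p under 0.05 by edgeR. The share of all tested genes called was 0 for old Fabp4 shRNA against old control, 0.057% for old Fabp4 shRNA against young and 0.0357% for old control against young. At an unadjusted p under 0.05 edgeR had 0 members in each comparison, against 6.75%, 8.93% and 10.5% of all tested genes in the same order. DESeq2 also called 0 members in each, with 0.0501%, 0.887% and 1.2% of its tested genes called, and 1 member, Lcn2 in old control against young, passed unadjusted where 11.7% of genes did. limma-voom had 0 members in each, both adjusted (0, 0 and 0.0214% of all tested genes) and unadjusted (6.47%, 8.49% and 9.38%). With the recovered reads edgeR again called 0 members, beside 0, 0.445% and 0.0718% of genes. The members' median difference was -0.35 for old Fabp4 shRNA against old control, 0.29 for old Fabp4 shRNA against young and 0.64 for old control against young, beside -0.01, 0.02 and 0.01 over all tested genes.

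Within groups the members stood out by their spread. Over all 9 libraries the highest exceeded the lowest by 92.9-fold for Saa1, 82.0-fold for Lcn2, 69.2-fold for Saa2 and 54.8-fold for Orm2. The span was 5.10-fold for Hpx, 4.98-fold for Hp, 4.26-fold for Orm1 and 3.64-fold for Saa3, and 2.38-fold and 2.24-fold for Itih4 and Crp. The within-group SD of log2 CPM was 2.67 for Saa2 and 2.65 for Saa1, above that of 99.9% of tested genes, and 1.87 for Lcn2 and 1.76 for Orm2, above 99.7% of them. The median over all tested genes was 0.384, and Crp, at 0.42, lay above 56.0% of them. Among the 7392 tested genes with a mean of 10 CPM or more, Crp lay above 78.1% and Itih4 above 82.8%.

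**Figure D3:**
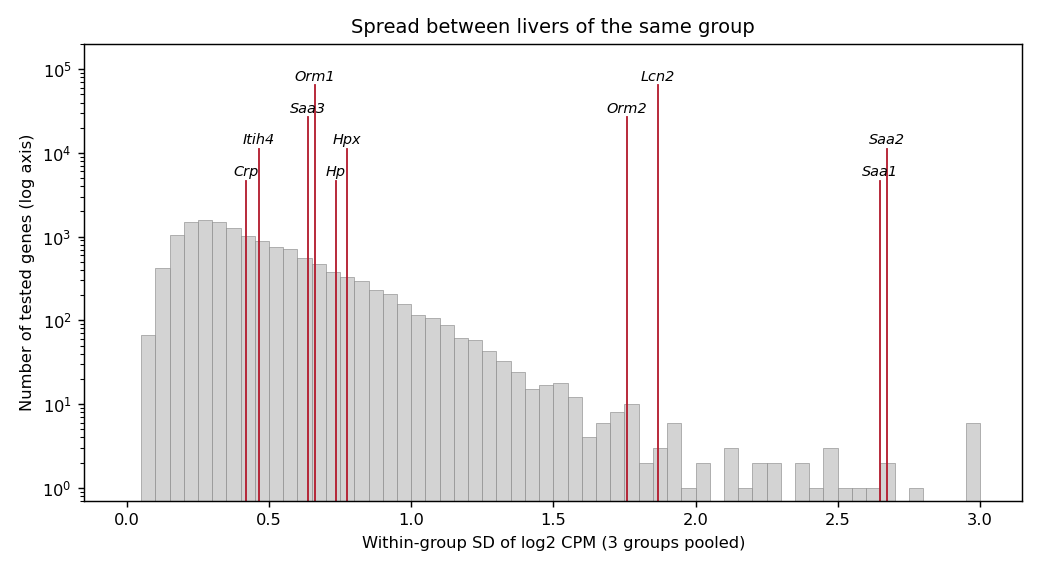
Number of tested genes (log axis) by the SD of log2 CPM between livers of 1 group, pooled over 3 groups, with values above 3 placed in the last bar. Red lines mark the 10 transcripts: Crp and Itih4 lie near the centre of all tested genes, which include genes of low count, Orm2 and Lcn2 near 1.8, and Saa1 and Saa2 near 2.7.

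The spread was smaller in young livers. For 10 of 10 members the log2 range of the young libraries was the narrowest of the 3 groups, a pattern that 35.0% of all tested genes had. With the recovered reads it was again 10 of 10, against 43.6% of genes. The members moved together, with a positive correlation in all 45 pairs, and each group had 3 livers. The 10 members are therefore not 10 separate observations. The median log2 range of the members was 1.81 in old Fabp4 shRNA livers, 1.81 in old control livers and 0.85 in young livers, or 0.37 in young livers with the recovered reads. Over all tested genes it was 0.71, 0.62 and 0.63 in that order, and 0.52 in young livers with the recovered reads.

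The lowest liver was the same one for most members, whereas the highest liver differed between them. Old Fabp4 shRNA replicate 1 was the lowest of 9 libraries for 9 members, and the exception was Saa2, lowest in old control replicate 5. Old control replicate 1 was the highest for 5 members (Orm1, Orm2, Hp, Hpx and Lcn2), old Fabp4 shRNA replicate 3 for 4 (Saa1, Saa2, Itih4 and Crp) and old Fabp4 shRNA replicate 6 for Saa3. Counted from the highest, old control replicate 1 ranked only 5 of 9 for Itih4 and Crp. Old Fabp4 shRNA replicate 3 ranked 7 for Orm1 and 6 for Hp. Old control replicate 5 was among the lowest 3 for 8 members. The 10 members together took 0.895%, 1.93% and 2.68% of counts in old Fabp4 shRNA livers, 4.42%, 2.26% and 1.14% in old control livers and 1.30%, 1.27% and 2.13% in young livers (recovered 1.25%). Each 95% Wilson interval of these shares was within 0.0104 percentage points of its value, for counting error only. The serum amyloids made up 12.6% of the members' counts in old Fabp4 shRNA replicate 3 and 4.60% in old control replicate 1, so the livers with the most Saa1 differed in makeup.

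**Figure D4:**
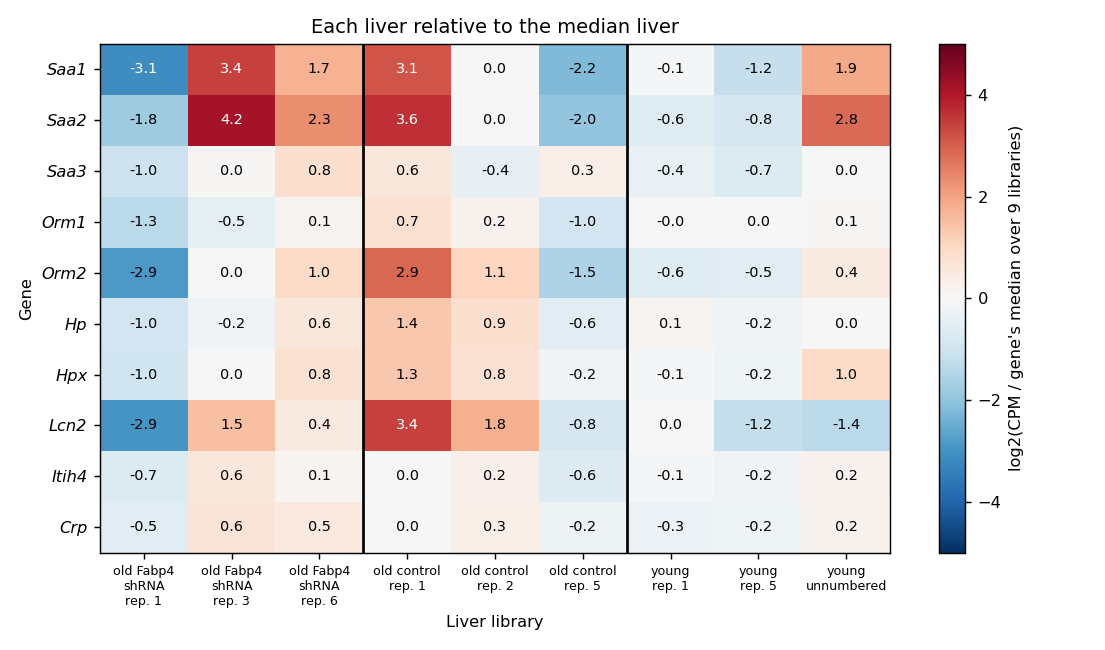
Log2 ratio of each transcript's CPM to its median over 9 libraries, by library, with groups parted by lines. Old Fabp4 shRNA replicate 1 is below the median for every gene, at -3.1 for Saa1, and old control replicate 1 reaches 3.1 for Saa1 and 3.4 for Lcn2.

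**Figure D5:**
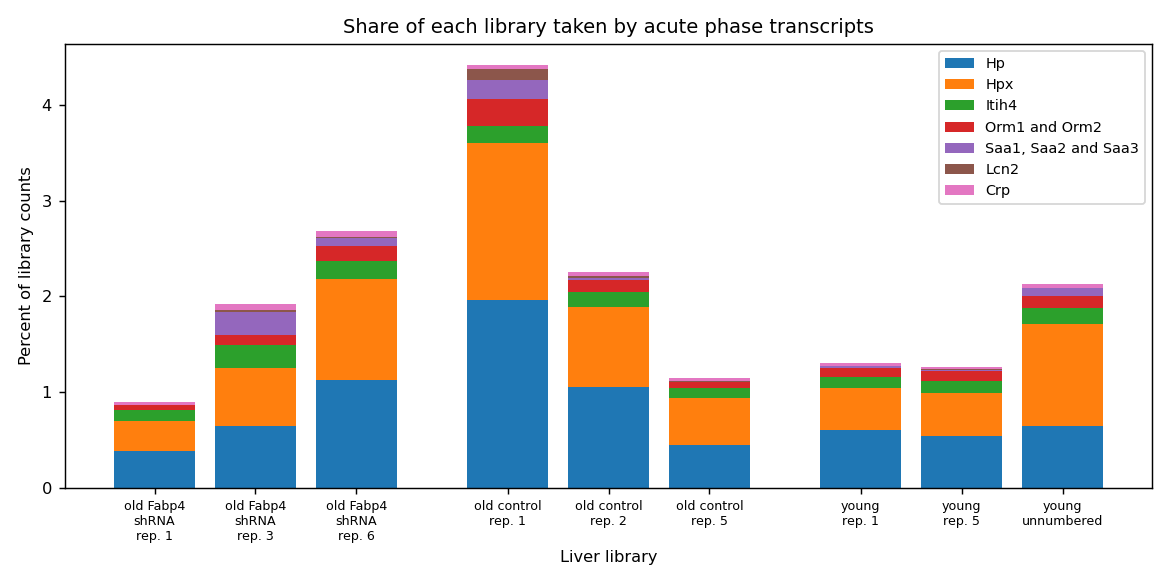
Percent of each library's counts taken by the 10 transcripts, stacked by gene or family, for 3 libraries of each group. Hp and Hpx form most of every bar; the total runs from 0.895% in old Fabp4 shRNA replicate 1 to 4.42% in old control replicate 1.

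Among the 45 pairs of members, Pearson's r of log2 CPM over the 9 libraries was above 0 in 45, from 0.34 to 0.97 with a median of 0.68. These points share library depth and scaling, and r is given as a description. Saa1 and Saa2 had r = 0.97 (Spearman's rho 0.98), and 0.95 without the 2 libraries farthest from the median of Saa1. Orm2 and Hp had r = 0.96 (rho 0.90), and 0.88 without the 2 farthest libraries. Itih4 and Crp had r = 0.87 (rho 0.90), and 0.87 without the 2 farthest. Lcn2 was closest to Hp (r = 0.87, rho 0.80, falling to 0.60 without the 2 farthest) and to Orm2 (r = 0.86, rho 0.75, falling to 0.52). Lcn2 and Hpx had r = 0.71 with the unnumbered young library and 0.91 without it. The lowest r was that of Saa3 with Itih4, 0.34, which turned to -0.11 without the 2 farthest libraries. Orm1 with Itih4 turned likewise, to -0.50 against 0.61 over all 9 libraries, and Orm1 with Crp to -0.33 against 0.41.

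Outside the members, 12571 genes with a mean of 1 CPM or more were searched for the pattern most like 4 of them by Pearson's r over the 9 libraries. The highest of so many values of r over 9 points can be high for unrelated genes, so they are given as a description. The 3 most like Saa1 were the glycosyltransferase B3galnt2 (0.98), Ccdc50 (0.97) and the tyrosine sulphotransferase Tpst2 (0.95). For Lcn2 they were Mad2l2 (0.97), Alg11, a mannosyltransferase of N-glycan assembly (0.97), and Rtp3 (0.96). For Orm1 they were Tmem101 (0.96), Dap (0.92) and Fam25c (0.92), and for Saa3 they were Mpzl1 (0.96), C1qtnf12 (0.95) and Tagln2 (0.95). The gene most like Saa1 moved far less than Saa1 did, and B3galnt2 ran from 12.5 CPM in old Fabp4 shRNA replicate 1 to 23.0 CPM in replicate 3, whereas Mpzl1 ran from 1.60 to 7.89 CPM over the 9 libraries.

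The inducing cytokines were scarce in liver RNA. Il6 had 3 counts in all 9 libraries together and Il22 had 0, and Il1b, interleukin 1 beta, ran from 0.192 CPM in the unnumbered young library (recovered 0.680 CPM) to 11.9 CPM in old control replicate 1; these ligands were named after their values were seen. Of 10 ligands, 4 were tested and 0 were called in any comparison by edgeR. At an unadjusted p under 0.05 there were 0 to 1, and the 1 was Clcf1, a cytokine of the interleukin 6 family, at -1.48 ± 0.46 in old Fabp4 shRNA against old control livers (adjusted p = 0.728).

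In the filtered count table limma-voom and edgeR, fitted with 1 mean per group, called 0 genes of the lists that follow. The calls made by DESeq2 are named where they fall. With the recovered reads edgeR called the haptoglobin receptor gene Cd163 and the stress-induced transcription factor gene Atf3 (2.97 ± 0.59 in old Fabp4 shRNA against young, adjusted p = 0.0475). Without the filter on low counts it called Ngp, Csf3r, Ass1, Mt2 and Nfkbiz. With the replicate block described below, which left 1 residual degree of freedom, edgeR called Pim1, Apcs, Lbp, Serpina6, Mt2 and Fcgr2b. That fit also called Cidec, Arntl, Tef, Jun and Egr1. In old Fabp4 shRNA against young, limma-trend called Cd163 and Atf3 on log2(FPKM + 0.1) and Cd163 on log2(FPKM + 1). Of the 9 receptor genes, 1, 3 and 1 passed unadjusted (edgeR) in old Fabp4 shRNA against old control, old Fabp4 shRNA against young and old control against young, and 1, 4 and 4 with the recovered reads. Of all tested genes 6.75%, 8.93% and 10.5% passed in the same order. With the recovered reads 686, 1358 and 1097 of 13922 genes passed as higher and 514, 1034 and 833 as lower. These backgrounds hold for the lists below too. Osmr, the oncostatin M receptor chain, was 6.17, 4.96 and 4.86 CPM in old Fabp4 shRNA livers, 10.4, 7.80 and 10.7 CPM in old control livers and 3.77, 3.97 and 4.09 CPM in young livers, so old control livers lay above both other groups. It differed by -0.85 ± 0.26 between old Fabp4 shRNA and old control and by 1.29 ± 0.27 between old control and young (adjusted p = 0.728 and 0.166, edgeR), and DESeq2 called the second of these (adjusted p = 0.00315). In old Fabp4 shRNA against young livers the receptors with an unadjusted p under 0.05 were Il22ra1 (1.98 ± 0.61), Il6st, the shared signalling chain gp130 (0.57 ± 0.22), and Il1rap (-0.57 ± 0.23), with adjusted p of 0.428, 0.495 and 0.513 (edgeR).

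Of 10 genes listed as feedback genes or other targets of STAT3 or NF-kB, DESeq2 called 1, Nfkbiz in old control against young. The list is mixed, and some of its genes, such as Socs2 and Cish, are not specific to these factors. The filtered edgeR fit with 1 mean per group called 0. In old control against young livers 9 of 10 were above 0, with a median of 0.90, and 5 were higher at an unadjusted p under 0.05, where 6.42% of all tested genes were. That count was 3 with the recovered reads and 2 without the unnumbered young library. Nfkbiz, which encodes the nuclear regulator IkB-zeta, was 16.3, 14.2 and 18.3 CPM in old Fabp4 shRNA livers, 45.9, 26.5 and 21.1 CPM in old control livers and 8.06, 14.0 and 10.3 CPM in young livers. Old control livers were the highest without overlap, by 1.53 ± 0.30 over young (adjusted p = 0.165 by edgeR and 0.00273 by DESeq2), and old Fabp4 shRNA differed from them by -0.94 ± 0.30 (adjusted p = 0.728, edgeR). The kinase gene Pim1 differed by -1.08 ± 0.27 between old Fabp4 shRNA and old control and by 0.78 ± 0.27 between old control and young. Bcl3 and Socs3, the STAT3 inhibitor, were 1.30 ± 0.43 and 1.02 ± 0.43 higher in old control than in young livers (adjusted p = 0.372 and 0.439, edgeR). In old Fabp4 shRNA against old control, 9 of 10 were below 0 with a median of -0.76, and 2 passed unadjusted. In old Fabp4 shRNA against young the median was 0.19 and 0 of 10 passed unadjusted (edgeR).

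Of 22 other positive acute phase genes, the filtered edgeR fit with 1 mean per group called 0. DESeq2 called 1, Mt2 in old Fabp4 shRNA against young. In old Fabp4 shRNA against old control 19 of 22 were below 0, with a median of -0.54 beside -0.01 for all tested genes, and 3 passed unadjusted: Cp, the ferroxidase ceruloplasmin (-1.04 ± 0.35), Hamp, the iron hormone hepcidin (-1.58 ± 0.58), and Il1rn, the interleukin 1 receptor antagonist (-1.03 ± 0.42). In old control against young 15 of 22 were above 0, with a median of 0.22, and Steap4 (1.65 ± 0.61), Il1rn (0.95 ± 0.42) and Cp (0.77 ± 0.35) were higher and Mt2, a metallothionein, was lower (-1.38 ± 0.62) at an unadjusted p under 0.05. Their adjusted p ran from 0.409 to 0.467 (edgeR), and with the recovered reads 2 passed unadjusted, Steap4 and Il1rn. Mt2 differed by -2.76 ± 0.66 between old Fabp4 shRNA and young livers (adjusted p = 0.314 by edgeR and 0.00254 by DESeq2), and by -2.46 ± 0.87 with the recovered reads (adjusted p = 0.195, edgeR), which held 0.971 CPM of it against 5.36 CPM in the count column.

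By their sum, of which Alb was the largest part, the negative acute phase genes did not mirror the positive ones in every liver. Their summed level was 75853, 90263 and 81283 CPM in old Fabp4 shRNA livers, 92229, 139592 and 118145 CPM in old control livers and 176398, 114219 and 112746 CPM in young livers. Old Fabp4 shRNA replicate 1, the lowest library for most members, was thus also the lowest for the negative sum, with 47650 CPM of Alb. It was also the lowest for the sum of the other positive genes at 12495 CPM. By single genes, old Fabp4 shRNA replicate 3, the highest library for Saa1 and Saa2, was the lowest for Ttr, Trf, Serpina6, Apoa1 and Fetub. It was not the lowest for Alb, Rbp4, Ahsg, F12 and Pon1. Against young livers, in old Fabp4 shRNA livers 10 of 10 were below 0 with a median of -0.61, and Ahsg and Fetub, the fetuins, Apoa1 and Alb, albumin, were lower at an unadjusted p under 0.05, by -0.89 ± 0.30, -0.70 ± 0.27, -0.72 ± 0.29 and -0.76 ± 0.33 (adjusted p from 0.452 to 0.545, edgeR). Without library scaling 8 of 10 were below 0, and 1 passed unadjusted. Against old control livers 2 of 10 passed unadjusted in old Fabp4 shRNA livers, and in old control against young 0 did (edgeR).

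Among 17 binding partners and receptors of the members, 2, 2 and 3 passed unadjusted (edgeR) in old Fabp4 shRNA against old control, old Fabp4 shRNA against young and old control against young, and 2, 2 and 5 with the recovered reads. Of all tested genes 6.75%, 8.93% and 10.5% passed by the count column. Cd163, the macrophage receptor for haptoglobin bound to haemoglobin, was 7.94, 3.20 and 3.87 CPM in old Fabp4 shRNA livers, against 17.2, 13.4 and 6.00 CPM in young livers, with 16.5 CPM recovered for the last (-1.29 ± 0.41, adjusted p = 0.441, edgeR, and -1.66 ± 0.32, adjusted p = 0.0425, with the recovered reads). Fpr2, a receptor for serum amyloid A, was 0.611, 0.110 and 1.10 CPM in old Fabp4 shRNA livers, 4.53, 2.13 and 2.02 CPM in old control livers and 1.03, 1.37 and 0.702 CPM in young livers. Old control livers were the highest without overlap, and Fpr2 differed by -2.24 ± 0.66 between old Fabp4 shRNA and old control (adjusted p = 0.728, edgeR). Fcgr1, an Fc receptor that can bind C-reactive protein, differed by -2.02 ± 0.64 in the same comparison and by 1.79 ± 0.63 between old control and young (adjusted p = 0.728 and 0.385, edgeR).

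Markers of blood cells moved in some of the same livers, and fewer cells of a type cannot be told apart from less RNA per cell in bulk liver. The 11 neutrophil markers summed to 9.22, 6.18 and 16.8 CPM in old Fabp4 shRNA livers, 67.7, 52.9 and 20.1 CPM in old control livers and 13.3, 15.9 and 30.5 CPM in young livers (recovered 6.12 CPM). Old control livers 1 and 2, the highest for Lcn2, were thus the highest for neutrophil markers. Other livers differed: old Fabp4 shRNA replicate 3, the next highest for Lcn2 at 249 CPM, had the lowest neutrophil sum of the count columns. The unnumbered young library, next highest for the neutrophil sum by its count column, was the eighth for Lcn2. Against old control livers, in old Fabp4 shRNA livers 9 of 10 tested neutrophil markers were lower at an unadjusted p under 0.05, where 3.48% of all tested genes were, led by Elane (-2.84 ± 0.66), Ngp (-3.73 ± 0.91), Retnlg (-2.11 ± 0.53) and Camp (-4.03 ± 1.10), each with an adjusted p of 0.728 in edgeR, while DESeq2 called Ngp (adjusted p = 0.0446). The most abundant of them, S100a9, was 1.04, 1.60 and 5.64 CPM in old Fabp4 shRNA livers and 19.3, 16.9 and 5.81 CPM in old control livers, and Ly6g had 4 counts in all libraries. The part of neutrophils in the Lcn2 level was not tested.

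The 9 Kupffer cell markers, of the liver's resident macrophages, summed to 762 CPM in old control replicate 1 and to 117 to 285 CPM in the other 8 libraries, and that library was the highest for 5 members. Of the Kupffer cell markers 9 of 9 were below 0 in old Fabp4 shRNA against old control, with 3 lower at an unadjusted p under 0.05 (edgeR). By the sum this rested on old control replicate 1. Old control replicates 2 and 5 had 196 and 190 CPM, among the 228, 117 and 200 CPM of old Fabp4 shRNA livers. The 8 markers of monocyte-derived macrophages summed to 48.6, 49.5 and 65.0 CPM in old Fabp4 shRNA livers, 172, 80.2 and 67.6 CPM in old control livers and 33.1, 44.1 and 55.7 CPM in young livers (recovered 34.6 CPM). By this sum old control livers lay above both other groups, but narrowly, with 67.6 CPM in replicate 5 against 65.0 CPM in old Fabp4 shRNA replicate 6. By single markers old control replicate 5 was below old Fabp4 shRNA replicate 6 for Lyz2 (44.9 against 51.3 CPM), Ly6c2 and Itgam. Cd68 and Itgax separated as the sum did by the count column, and Gpnmb and Trem2 overlapped. Of these 8 markers, 4 were lower in old Fabp4 shRNA than in old control livers and 4 higher in old control than in young livers at an unadjusted p under 0.05, or 5 and 7 with the recovered reads (edgeR). Hepatocyte markers were abundant throughout, and the 10 genes summed to 86883, 99738 and 88675 CPM in old Fabp4 shRNA livers, 98044, 145575 and 123180 CPM in old control livers and 183306, 118828 and 120582 CPM in young livers. Of these DESeq2 called Ass1, a urea cycle enzyme, in old Fabp4 shRNA against young (-1.14 ± 0.30, adjusted p = 0.0293). Fat cell markers summed to 120, 97.1 and 76.3 CPM in old Fabp4 shRNA livers, 86.1, 153 and 62.2 CPM in old control livers and 24.7, 30.3 and 131 CPM in young livers. With the recovered reads the last was 17.3 CPM, so that young livers lay below all old ones by this sum. The 4 tested markers, Cfd, Cidec, Fabp4 and Plin4, were then all higher in old control than in young livers at an unadjusted p under 0.05, against 2 by the count column (edgeR). The sums were mostly Cidec, Plin4 and Fabp4. Adipoq, Plin1, Lep and Retn had only 22, 10, 7 and 21 counts in all libraries together, so the sums say little of fat cells as such. The skeletal muscle markers reached 86.4 CPM in old Fabp4 shRNA replicate 3, the highest library for Saa1. The part of these cells in the members' levels was not tested.

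Genes of the daily clock also differed between the same livers, and the hour of collection is not given in the sources used here. Tef, a clock-driven transcription factor and the most abundant of the 7 clock genes, was 286, 43.7 and 72.0 CPM in old Fabp4 shRNA livers, 47.4, 33.0 and 113 CPM in old control livers and 204, 307 and 115 CPM in young livers. The libraries with the most Tef, young replicate 5, old Fabp4 shRNA replicate 1 and young replicate 1, had 63.6, 16.4 and 131 CPM of Saa1. Other libraries did not follow an inverse order. Old control replicate 2, the lowest for Tef, had 142 CPM of Saa1. The unnumbered young library and old control replicate 5, near each other in Tef by the count column, had 523 CPM (recovered 102 CPM) and 30.9 CPM of Saa1. Npas2, a partner of the clock's activator complex, was 0.611, 7.50 and 0.784 CPM in old Fabp4 shRNA livers, 8.89, 6.62 and 2.78 CPM in old control livers and 0.222, 1.14 and 0.447 CPM in young livers (recovered 0.291 CPM), with its 2 highest values in the 2 libraries highest for Saa1. It differed by 3.33 ± 1.03 between old control and young (adjusted p = 0.350 by edgeR and 0.0118 by DESeq2). Old Fabp4 shRNA replicate 6, with 0.784 CPM of Npas2, had 474 CPM of Saa1, and old control replicate 2, with 6.62 CPM, had 142 CPM. The immediate early genes, which cells induce rapidly under stress, summed to 38.8, 141 and 133 CPM in old Fabp4 shRNA livers, 96.8, 119.6 and 70.8 CPM in old control livers and 56.4, 53.6 and 69.4 CPM in young livers (recovered 45.5 CPM), again lowest in old Fabp4 shRNA replicate 1. Jun, the most abundant with Ier2, was 8.67, 79.9 and 56.5 CPM in old Fabp4 shRNA livers. The part of collection time or handling in the members' levels was not tested.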

How the data were processed

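RNA was sequenced from 9 mouse livers, 3 per group. The authors deposited a table of unscaled whole read counts per gene and a table of FPKM, in which they scaled counts for gene length and depth. The submitters' processing notes name GRCm38.p6 and HISAT2. No counting program, strand setting or annotation release is named in the sources used here. Of the identifiers, 54409 of 54532 matched GENCODE M21, used for positions.

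Tests used edgeR 4.0.16 under R 4.3.3 on the counts as deposited: filterByExpr by group, TMM scaling (factors 0.825 to 1.15), and a robust quasi-likelihood fit with 1 mean per group over all 9 libraries and 6 residual degrees of freedom. P-values are two-sided, with Benjamini-Hochberg adjustment over 14025 genes and a threshold of 0.05. The SE is the log2 fold change divided by the square root of F. CPM are TMM-scaled, and ranges of log2 CPM used an offset of 0.1 CPM. A floor of 3 counts stands for 0.175 to 0.211 CPM. Recovery of the unnumbered young FPKM column to whole reads gave whole numbers within 0.05 reads for 100% of 17635 values, 11805823 reads in all, and 226 genes could not be recovered. Alternatives were DESeq2 1.42.0, limma 3.58.1 (voom, and trend on log2(FPKM + 1) and log2(FPKM + 0.1)), other scaling and filters, the recovered reads, a replicate block and leaving out each library. The fit was checked on simulated counts.

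All members were named; of each gene list and comparison, up to 4 tested genes with the smallest unadjusted p under 0.05; of the cell, muscle, fat, clock and immediate early lists also the 2 most abundant were eligible; and the 3 genes most like each of 4 members. Members and lists were chosen with earlier results of these data known. The result of 1 gene list is not reported here.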

Additional observations from a re-analysis of the deposited data

How the results depend on the processing

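Over 22 alternative settings, 0 members were called in any of the 3 comparisons (lowest adjusted p 0.0755). Of 654 alternative values, 605 kept their direction and 49 turned it, in 19 of 30 results, none of them called. The direction of small or widely spread differences therefore carries little weight, and 3 livers a group limit all of them. All calls over genes moved with the tool: for old control against young 5 by edgeR, 168 by DESeq2, 3 by limma-voom and 10 with recovered reads, for old Fabp4 shRNA against young 8, 124, 0 and 62, and for old Fabp4 shRNA against old control 0, 7, 0 and 0.

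Without scaling, the median of all genes shifted to 0.13 for old Fabp4 shRNA against old control, 0.31 for old Fabp4 shRNA against young and 0.16 for old control against young, and Saa3 became 0.0080 in the first, Hp 0.26 and Hpx 0.0344 in the second and Itih4 0.0443 in the third. Itih4 in old control against young was 0.0547 with either FPKM offset and 0.0928 with recovered reads; Orm1 there was -0.0091 with limma-voom, -0.0329 with the FPKM offset of 1 and -0.0330 with that of 0.1. In old Fabp4 shRNA against young, limma-voom gave -0.41 for Orm2 and -0.0027 for Itih4, and recovered reads gave 0.0595 for Hp and 0.16 for Hpx. The members' share of the unnumbered young library was 2.13% by its counts and 1.25% by its recovered reads.

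Leaving out 1 library moved old control against young from -1.47 to 2.23 for Saa1, -2.14 to 2.87 for Saa2, -0.27 to 0.49 for Orm1, -0.28 to 0.12 for Itih4 and -0.0068 to 0.27 for Crp. For old Fabp4 shRNA against old control the ranges were -0.95 to 2.96 for Saa1, -0.80 to 3.62 for Saa2, -0.62 to 0.26 for Saa3 and -0.15 to 0.44 for Itih4. For old Fabp4 shRNA against young they were -0.0777 to 3.68 for Saa2, -0.0769 to 0.80 for Saa3, -0.67 to 0.71 for Orm2, -0.50 to 0.27 for Hp, -0.73 to 0.26 for Hpx and -0.24 to 0.35 for Itih4.

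Same-numbered libraries deviated together with correlations of -0.0457, 0.0882, 0.112 and 0.0295, so the numbers were not taken as pairs. The replicate block left 1 residual degree of freedom and called 0 members. In it Saa1 was -5.56, Saa2 -4.65, Itih4 -0.57 and Crp -0.45 for old Fabp4 shRNA against old control. For old Fabp4 shRNA against young, Saa1 was -4.42, Saa2 -3.01, Saa3 -0.66, Orm2 -3.79, Lcn2 -3.89, Itih4 -0.76 and Crp -0.30. For old control against young, Orm1 was -0.0886. The cause of these turns was not tested.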

Other observations

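The fibrinogen genes, which encode the chains of the clot-forming plasma protein and belong to the other positive acute phase genes, are described here after their values were seen. Fga was 879, 4911 and 2447 CPM in old Fabp4 shRNA livers, 2449 (replicate 1), 6094 (replicate 2) and 1651 CPM (replicate 5) in old control livers and 2376, 1304 and 4994 CPM in young livers, where the recovered reads of the unnumbered library gave 2529 CPM. Fgb had its lowest value, 1760 CPM, in old Fabp4 shRNA replicate 1 and its highest, 8216 CPM, in old control replicate 2, and Fgg did likewise with 1416 and 6653 CPM. The lowest library was thus the one lowest for most of the 10 members, whereas the highest was not the one highest for Hp, Hpx, Orm1, Orm2 and Lcn2. The groups overlapped for each chain.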
